A study of Mus musculus with 4 samples.

Results

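The potassium channel genes described here are the mouse genes whose symbols begin with Kcn, the name given to potassium channel subunits and their partners. Members were chosen by symbol and by measured UMI counts: they were taken from the gene list of the matrices (antisense names ending in os or Rik were left out), and a member needed at least 50 unique molecular identifiers (UMIs, each standing for 1 captured RNA molecule) summed over the 4 libraries. Of 95 names that match, 71 are members, among 27998 genes in all, and they hold 761040 of 215161386 UMIs, or 0.354%. By family the members are 28 voltage-gated subunits, 16 auxiliary subunits, 10 inward rectifiers, 8 tandem-pore channels, 8 calcium- or sodium-activated channels and the non-coding RNA Kcnq1ot1. Not every member forms a channel: the auxiliary group holds Kcnrg, a regulator, and the Kcnip and Kcnab genes, whose proteins bind channel subunits. The UMI total chose the members, so the totals are given as a description: just inside the limit lie Kcnmb3 with 52 UMIs, Kcne1l with 56, and Kcna5 and Kcnk4 with 65 each, and just outside it lie Kcnj9 with 49, Kcns1 with 47 and Kcna7 with 41. Kcnj11, a pore subunit of the ATP-sensitive channel, has 2 UMIs and is no member, and 3 of the 24 names below the limit have none.

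The kidneys came from C57BL/6 mice at post-natal week 22, and the groups are 2 libraries treated with losartan, a drug that blocks the angiotensin II type 1 receptor, and 2 untreated libraries. No allele, disease model or other treatment is named for either group, and the sources used here give no dose, route or length of treatment and no sex of the mice. Kidneys were flash-frozen, nuclei were isolated with a kit, and single-nucleus libraries were made on the 10x Genomics Chromium platform. Nothing in the labels says whether the 2 libraries of a group come from separate animals, so p-values measure the spread between these libraries, which may in part be technical.

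Potassium channels let potassium flow down its electrochemical gradient and so set the membrane voltage of kidney cells. Basolateral inward rectifiers of the tubule return to the blood the potassium that the sodium pump carries in. Apical channels recycle potassium in the thick ascending limb and secrete it in the connecting tubule and collecting duct. Auxiliary subunits change the gating, trafficking or calcium response of pore subunits, and in vessels, stroma and leukocytes other family members set tone and excitability. Blockade of the angiotensin II receptor lowers aldosterone, the hormone that drives potassium secretion, which is the textbook link between the drug and these genes.

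The libraries losartan 1, losartan 2, untreated 1 and untreated 2 held 58820323, 59078762, 42290414 and 54971880 UMIs over all barcodes. After filters, 9020, 9343, 8579 and 8993 nuclei were kept, with median UMIs per nucleus of 4227.5, 3944, 3363 and 4095. Between 21 and 29 barcodes were shared by any pair of libraries. Nuclei fell into 36 clusters, of which 30 were named by marker genes, and each class name below means nuclei that resemble that type (proximal tubule-like and so on). Unnamed clusters hold 3158 of 35935 nuclei. A level is expressed as CPM, a gene's UMIs per 1000000 UMIs of the same library and class. It is given for the 15 classes in which each library has 20 nuclei or more. Levels are not scaled for gene length and are compared between classes or libraries for 1 gene, not between genes. Among the members, 28 overlap another counted gene on the opposite strand, Kcnma1, Kcnab1, Kcnip4, Kcnq1 and Kcnq3 among them, and their values are uncertain because no source states which strand was counted; Kcnj15, Kcnk5, Kcnb2, Kcnh8, Kcnj1 and Kcnj10 do not. Each cluster of a class need not draw evenly on the libraries: 1 proximal tubule cluster holds 1170, 21, 4 and 0 nuclei of losartan 1, losartan 2, untreated 1 and untreated 2.

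The highest class means of the 71 genes were spread over 14 of the 15 classes: 10 members peaked in mural and mesangial nuclei, 8 in fibroblasts, and 6 each in intercalated cells, parietal epithelium, podocytes and principal or connecting tubule cells. None peaked in the thin limb. For 34 of 71 members all 4 library values in the highest class lay above all 4 in the second, and for the other 37 they overlapped. The highest class was the same for 55 members at clustering resolution 0.5, 58 with doublets kept and 60 without losartan 1. Clustering did not use Kcn genes as variable genes, and this pattern is a description without a test.

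**Figure D1:**
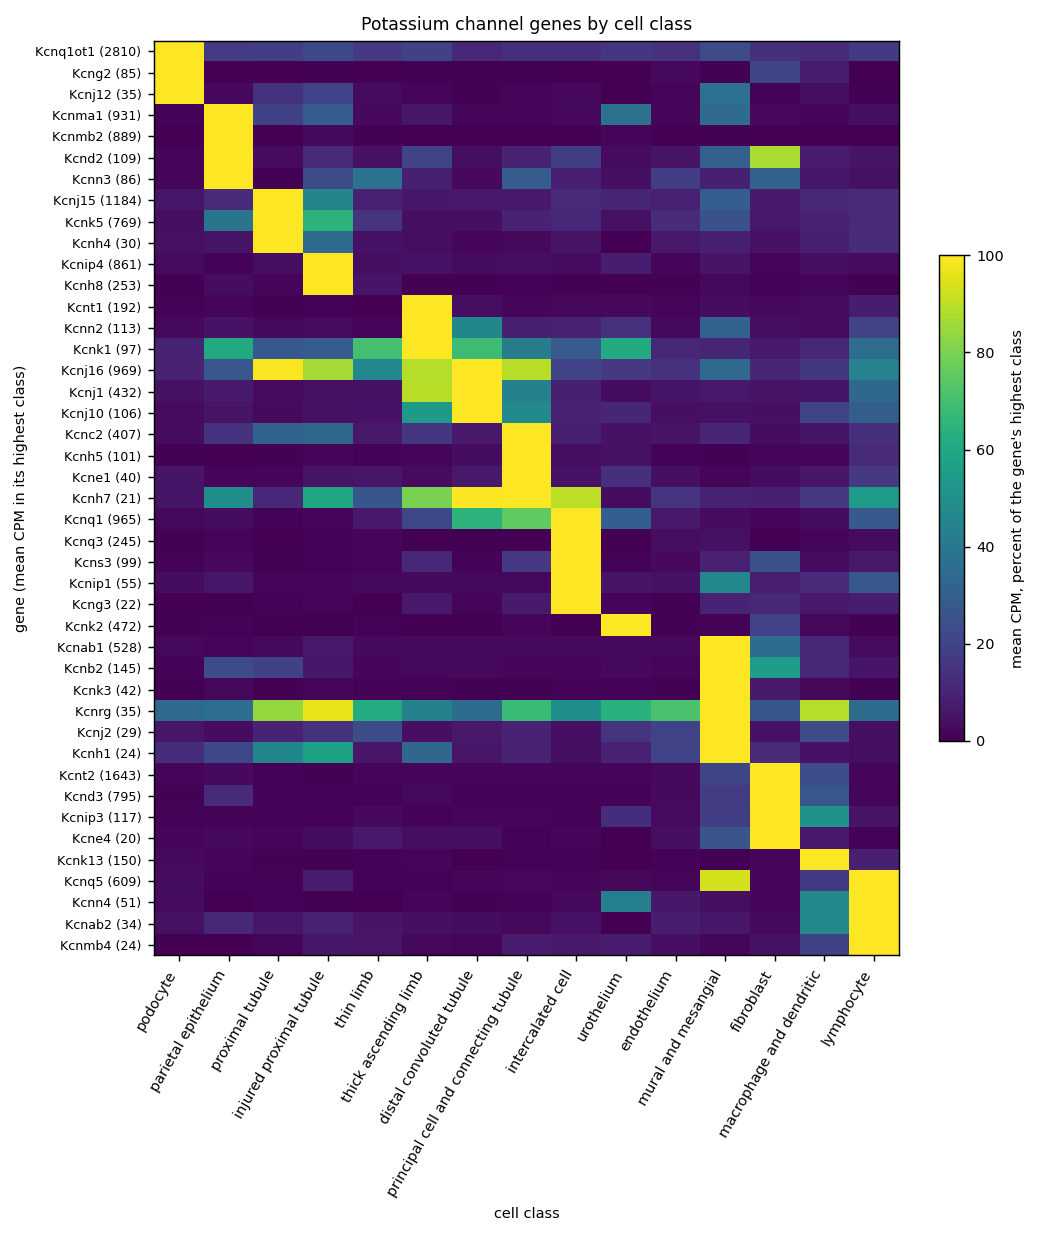
Each row is a member whose highest class mean is at least 20 CPM, with that mean in parentheses, and each column is a cell class; colour gives the mean CPM over the 4 libraries as a percent of the gene's own highest class. Bright blocks run from podocytes at the left to lymphocytes at the right, with Kcnmb2 (889 CPM) bright in parietal epithelium only, while Kcnj16 and Kcnrg are bright in many columns.

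In the proximal tubule, which reabsorbs most of the filtrate, leading members were Kcnj15, Kcnk5 and Kcnh4. Kcnj15 (ENSMUSG00000062609, chr16:95257558-95300260, GRCm38) encodes a basolateral inward rectifier that pairs with the Kcnj16 product. Its level in proximal tubule nuclei was 1188 and 1407 CPM in the losartan libraries, against 949 and 1193 CPM in the untreated libraries, so that the groups overlapped. In injured proximal tubule nuclei, a class named by Havcr1, Vcam1 and other injury markers, it was 675 and 574 CPM in the losartan libraries and 476 and 429 CPM in the untreated libraries, below every proximal tubule value. Kcnk5 (ENSMUSG00000023243, chr14:20140057-20181809) encodes a tandem-pore channel that opens at alkaline pH and serves bicarbonate reabsorption. It stood at 774 and 807 CPM in losartan and at 804 and 691 CPM in untreated proximal tubule nuclei, which overlap. In injured nuclei Kcnk5 was 588 and 448 CPM with losartan and 519 and 434 CPM without it. Both genes thus had their highest class mean in the proximal tubule and their second in its injured form.

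The promoter windows of both genes are shown because they share this class pattern and are the only members called in any class below. Windows run from 250 bases before to 50 bases after the RefSeq start (GRCm38.p6), on the gene's strand, and were searched on both strands for GTTAAT and the full palindromic site of HNF1 that contains it, CAAAGTCCA of HNF4, TCAAGGTCA of estrogen-related receptors, and TATAAA of the TATA-binding protein. Capitals mark the 1 match, TTTATA at base 260 of the Kcnj15 window, the reverse complement of TATAAA. It lies after the start, not before it.
Kcnj15, chr16:95257308-95257607, plus strand: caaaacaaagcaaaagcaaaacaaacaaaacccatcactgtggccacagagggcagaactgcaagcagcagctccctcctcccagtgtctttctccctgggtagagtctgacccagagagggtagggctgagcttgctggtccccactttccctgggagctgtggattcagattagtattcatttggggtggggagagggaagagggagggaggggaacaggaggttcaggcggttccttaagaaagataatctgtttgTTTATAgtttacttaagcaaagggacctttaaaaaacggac
Kcnk5, chr14:20181733-20182032, minus strand: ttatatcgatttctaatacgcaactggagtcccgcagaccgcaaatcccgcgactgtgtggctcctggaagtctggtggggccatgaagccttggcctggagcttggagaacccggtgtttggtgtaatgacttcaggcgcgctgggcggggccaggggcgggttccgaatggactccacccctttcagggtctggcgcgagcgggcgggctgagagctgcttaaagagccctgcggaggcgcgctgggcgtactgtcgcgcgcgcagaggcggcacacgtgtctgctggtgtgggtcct
The Kcnj15 window is 49.7% GC with 2 CpG dinucleotides, and the Kcnk5 window is 63.7% GC with 26, against medians of 52.7% and 7 over 32851 windows of all genes. TATAAA is held by 13.6% of all windows, GTTAAT by 7.1%, CAAAGTCCA by 0.475%, TCAAGGTCA by 0.423% and the full HNF1 site by 0.00913%. In the 76 windows of the 53 members found in RefSeq, TATAAA occurs in 4 (of Kcnab1, Kcnj13, Kcnj15 and Kcnj16) and GTTAAT in 3 (of Kcnab1, Kcnj16 and Kcns3). The other 3 sets of letters occur in none of them. A match is a stretch of letters and shows no binding, and a window without one shows only that these letters are absent there.

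Kcnj16, whose product joins Kcnj15 in the proximal tubule and Kcnj10 in the distal tubule, was not confined to a segment. In distal convoluted tubule nuclei it was 881 and 988 CPM in the losartan libraries and 959 and 1048 CPM in the untreated libraries. Proximal tubule nuclei had 854 and 925 CPM with losartan and 981 and 1084 CPM without it. Thick ascending limb nuclei had 775 and 916 CPM with losartan and 837 and 918 CPM without. The 3 segments overlapped, and their differences do not exceed the spread between libraries.

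Kcnh4, a voltage-gated channel gene of the Elk family, was 51.6 and 26.0 CPM in losartan and 22.7 and 21.1 CPM in untreated proximal tubule nuclei.

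Injured proximal tubule nuclei led for Kcnip4 and Kcnh8 among the 15 classes. Kcnip4, a calcium-binding protein that attaches to Kcnd channels, was 248 and 1081 CPM in the losartan libraries and 649 and 1466 CPM in the untreated libraries, a mean of 861 CPM against 65.3 CPM in urothelium, the next class. Kcnh8, a voltage-gated channel of the Elk family, was 49.5 and 269.8 CPM with losartan and 305 and 386 CPM without it, against a mean of 14.5 CPM in the thin limb. In a cluster of 19 Schwann-like nuclei, too small to be 1 of the 15 classes, Kcnh8 had 0, 7, 7 and 32 UMIs in losartan 1, losartan 2, untreated 1 and untreated 2, which is 0, 862, 668 and 970 CPM. Of all Kcnh8 UMIs in kept nuclei, 80.2% came from injured proximal tubule nuclei. Losartan 1 was lowest for both genes, and that class held 34, 139, 392 and 480 nuclei in losartan 1, losartan 2, untreated 1 and untreated 2, too few in losartan 1 for a test.

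In the thick ascending limb and distal convoluted tubule, the segments that reabsorb salt beyond the thin limb, a pair of inward rectifiers had their highest levels. Kcnj1 (ENSMUSG00000041248, chr9:32372493-32399197), the apical channel that recycles and secretes potassium, was 440.1 and 401 CPM in losartan distal convoluted tubule nuclei and 443 and 442 CPM in untreated ones. In thick ascending limb nuclei it was 367 and 391 CPM with losartan and 406 and 378 CPM without it. Proximal tubule nuclei held 11.1 and 13.1 CPM with losartan and 15.7 and 13.1 CPM without it. The order of the first 2 classes is not settled, since their library values overlap, while both lie far above the proximal tubule. Kcnj10 (ENSMUSG00000044708, chr1:172341210-172374085), the basolateral partner of Kcnj16, was 103 and 103 CPM in losartan and 102 and 115 CPM in untreated distal convoluted tubule nuclei. Thick ascending limb nuclei had 42.4 and 61.4 CPM of Kcnj10 with losartan and 65.5 and 59.2 CPM without it, below every distal convoluted tubule value.

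**Figure D2:**
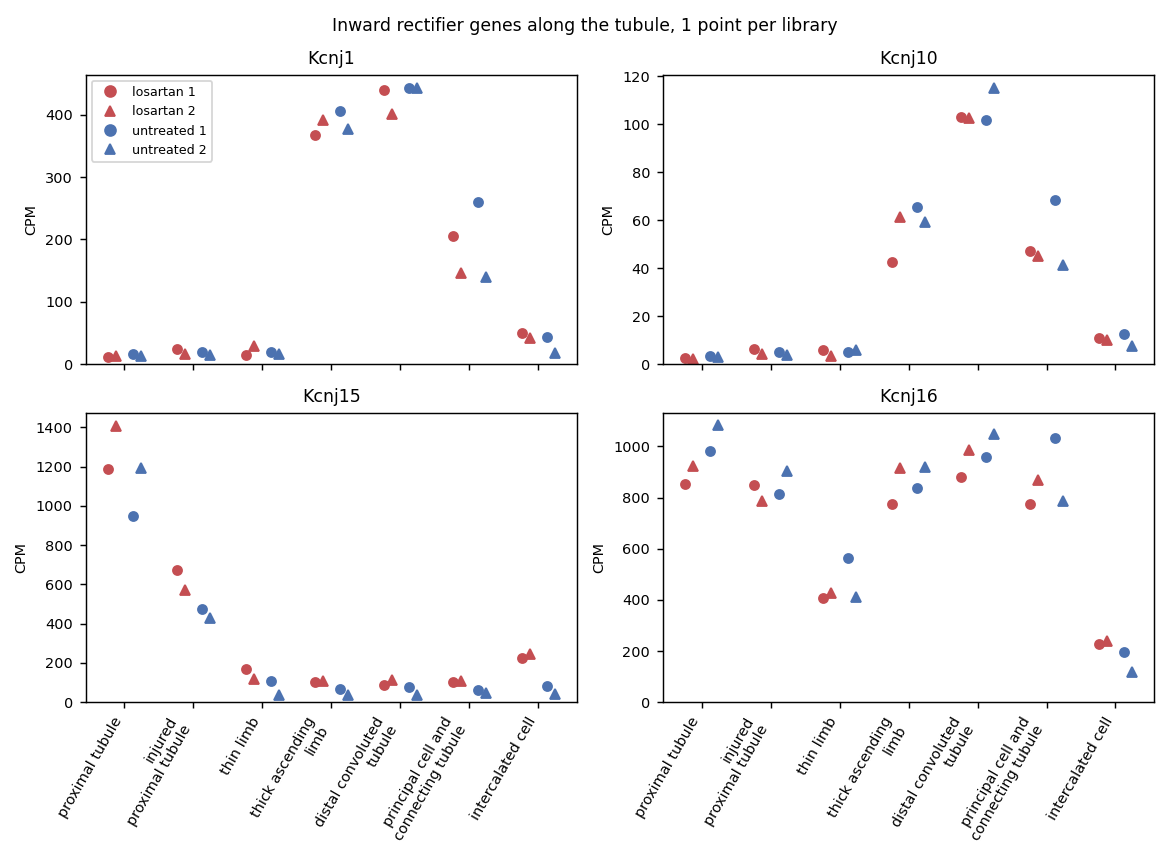
Each panel gives 1 gene's CPM (y axis, from 0) in 7 tubule classes (x axis), losartan libraries in red left of untreated libraries in blue, 1 point per library. Kcnj15 is highest in the proximal tubule, Kcnj1 and Kcnj10 in the thick ascending limb, distal convoluted tubule and principal or connecting tubule cells, and Kcnj16 is high in 5 of the 7 classes.

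The Kcnj1 and Kcnj10 windows are shown because Kcnj10 was the member most like Kcnj1 across classes, with a Pearson correlation of log2(CPM + 1) of 0.91 over 15 class means, a description of classes that share libraries.
Kcnj10, chr1:172340960-172341259, plus strand: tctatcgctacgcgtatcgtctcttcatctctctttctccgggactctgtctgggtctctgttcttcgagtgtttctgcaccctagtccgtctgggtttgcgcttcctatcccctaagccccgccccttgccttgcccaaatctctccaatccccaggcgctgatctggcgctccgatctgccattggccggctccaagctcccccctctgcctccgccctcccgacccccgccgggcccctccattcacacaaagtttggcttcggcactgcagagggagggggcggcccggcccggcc
Kcnj1, chr9:32393735-32394034, plus strand: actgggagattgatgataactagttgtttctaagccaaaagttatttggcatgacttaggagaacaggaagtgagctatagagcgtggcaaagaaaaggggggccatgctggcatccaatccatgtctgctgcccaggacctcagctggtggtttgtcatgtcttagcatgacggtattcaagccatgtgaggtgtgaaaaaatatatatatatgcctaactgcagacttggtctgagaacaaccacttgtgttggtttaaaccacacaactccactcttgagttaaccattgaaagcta
Despite the shared class pattern the windows differ in composition: the Kcnj10 window is 63.7% GC with 21 CpG dinucleotides and the Kcnj1 window is 43.7% GC with 2. Neither holds any of the 5 sets of letters. The RefSeq start of Kcnj1 used here lies inside the GENCODE gene. After Kcnj10, the member most like Kcnj1 was Kcnn2, a small-conductance calcium-activated channel, with a correlation of 0.77 over the same 15 classes. Kcnh6 was next for Kcnj10 at 0.77, but its highest class mean was 0.829 CPM, a few UMIs per library.

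Thick ascending limb nuclei also led for 3 channels of other families. Kcnt1, a sodium-activated channel, was 215 and 199.8 CPM in the losartan libraries and 247 and 104 CPM in the untreated libraries, and its next class mean was 14.7 CPM. It divided the segment, with a mean of 322 CPM in cluster 1 and 45.7 CPM in cluster 2. Kcnn2 was 137 and 137 CPM with losartan and 101 and 75.7 CPM without it, groups that did not overlap (log2 change 0.68, edgeR adjusted p = 0.15). Of 13285 genes tested in this class, 2626 likewise had both losartan values above both untreated values. Kcnk1, a tandem-pore channel, was 64.8 and 90.8 CPM with losartan and 125 and 106 CPM without it (log2 change -0.52, adjusted p = 0.353), and overlapped the thin limb, whose mean was 67.7 CPM.

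In principal and connecting tubule cells, where potassium is secreted, the members with the largest ratio to the next class were Kcnj3, Kcnh5 and Kcne1. Kcnj3, a G protein-gated inward rectifier, was 19.7 and 16.3 CPM in losartan and 20.4 and 20.4 CPM in untreated nuclei, against a mean of 1.87 CPM in the thick ascending limb. Kcnh5, a voltage-gated channel of the Eag family, was 136 and 92.7 CPM with losartan and 106 and 71.3 CPM without it. Kcne1, the auxiliary subunit that slows Kcnq1, was 31.5 and 30.6 CPM with losartan and 50.7 and 46.1 CPM without it, where the groups did not overlap (log2 change -0.60, edgeR adjusted p = 0.985). Of 11677 genes tested in this class, 1845 likewise had both losartan values below both untreated values. The secretory channel Kcnj1 was 205 and 147 CPM with losartan and 260.1 and 139 CPM without it. These levels depend on which of 2 clusters is read: Kcnj1 averaged 249 CPM in cluster 3 and 21.8 CPM in cluster 17, and Kcnh5 averaged 143 and 3.35 CPM in the same order. Cluster 17 held 118, 178, 8 and 314 nuclei of losartan 1, losartan 2, untreated 1 and untreated 2, so class levels in untreated 1 rest almost wholly on cluster 3.

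Intercalated cells, the acid and base secreting cells of the same ducts, led for Kcnq1, Kcnq3 and Kcns3. Kcnq1, a slow voltage-gated channel of epithelia and heart, was 806 and 1029.7 CPM in the losartan libraries and 1008 and 1015 CPM in the untreated libraries. Principal and connecting tubule nuclei had 763 and 613 CPM of Kcnq1 with losartan and 877 and 661 CPM without it, and overlapped the intercalated values. Its neighbour on the opposite strand, Kcnq1ot1, overlaps it, and the values of both are uncertain because the strand counted is not stated. Their class patterns differed all the same. Podocytes, the highest class of Kcnq1ot1 with a mean of 2810 CPM, had a Kcnq1 mean of 22.0 CPM, against 965 CPM in intercalated cells. Kcnq3, an M-type channel of neurons, was 257 and 352 CPM with losartan and 190.3 and 178 CPM without it (log2 change 0.77, edgeR adjusted p = 0.105), and its next class mean was 10.6 CPM. Its UMIs came from 1 of the 2 intercalated clusters, with means of 547 CPM in cluster 28 and 0.992 CPM in cluster 21. Cluster 28, led by Slc26a4, held 128, 118, 110 and 65 nuclei of losartan 1, losartan 2, untreated 1 and untreated 2, and cluster 21, led by Kit and with Slc4a1 among its leading genes, held 107, 98, 175 and 193. Within cluster 28 Kcnq3 was 495 and 671 CPM with losartan and 450.2 and 572 CPM without it, so that the groups overlapped. Kcns3, a subunit that forms no channel alone and modifies delayed rectifier channels, was 80.1 and 89.1 CPM with losartan and 109 and 119 CPM without it.

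Around the glomerulus, parietal epithelium, the lining of Bowman's capsule, carried both the large-conductance calcium-activated channel Kcnma1 and its auxiliary subunit Kcnmb2. Kcnmb2 was 891 and 801 CPM in losartan and 799 and 1067 CPM in untreated parietal nuclei, against 20.9 CPM in injured proximal tubule nuclei, the next class. Kcnma1 was 429.9 and 736 CPM in losartan and 1127 and 1431 CPM in untreated parietal nuclei, which is above the urothelium (458 and 383 CPM with losartan, 306 and 251 CPM without) in 3 of 4 libraries. Kcnmb2 was the member most like Kcnma1 across the 15 classes, with a correlation of 0.71, and Kcnh1 followed at 0.61. Kcnd2, an A-type voltage-gated channel, was 85.2 and 79.4 CPM with losartan and 175 and 95.0 CPM without it, and overlapped fibroblasts, whose mean was 95.1 CPM. Kcnn3, a small-conductance channel, was 89.1 and 145 CPM with losartan and 37.3 and 72.8 CPM without it.

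Podocytes led for Kcng2, a silent subunit that modifies delayed rectifier channels, with 104 and 53.0 CPM in the losartan libraries and 96.5 and 88.6 CPM in the untreated libraries. Kcnq1ot1, the imprinted non-coding RNA of the Kcnq1 locus, was 2914 and 3143 CPM with losartan and 2396 and 2789 CPM without it. Its mean in the next class, mural and mesangial nuclei, was 649 CPM, so every podocyte value lay above it. Neither podocyte gene was called.

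Mural and mesangial nuclei and fibroblasts, the cells of vessel wall and stroma, led for 10 and 8 of the 71 members. Mural and mesangial nuclei, the contractile cells of vessels and glomeruli, led for Kcnab1, which encodes an auxiliary subunit of Shaker-type channels. Kcnab1 was 633 and 331 CPM in losartan and 578 and 571 CPM in untreated mural nuclei, and in fibroblasts 87.8 and 152 CPM with losartan and 270.3 and 232 CPM without it (log2 change -1.03, edgeR adjusted p = 0.251). Kcnk3, an acid-sensitive background channel of smooth muscle, was 34.7 and 19.3 CPM with losartan and 76.5 and 36.6 CPM without it, with 3.08 CPM in fibroblasts, the next of the 15 classes. In a cluster of adipocyte-like nuclei found in only 2 libraries, and so not 1 of the 15 classes, Kcnk3 was 239 CPM in losartan 2 (46 nuclei) and 75.8 CPM in untreated 2 (64 nuclei). Kcnj2, a strong inward rectifier of vascular cells, was 29.8 and 27.9 CPM with losartan and 29.6 and 28.6 CPM without it, so that the groups overlapped within a narrow range. The smooth muscle subunit Kcnmb1 was 17.4 and 8.60 CPM with losartan and 29.6 and 6.36 CPM without it. Kcnh1, of the Eag family, was 22.3 and 21.5 CPM with losartan and 29.6 and 23.9 CPM without it, and Kcna5, a delayed rectifier of smooth muscle, was 4.96 and 2.15 CPM with losartan and 4.94 and 7.96 CPM without it. The Kcna5 and Kcnmb1 values rest on few UMIs, since the genes had only 65 and 160 over all barcodes of the 4 libraries.

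Fibroblasts led for Kcnt2, a sodium-activated channel, with 1599 and 1531 CPM in the losartan libraries and 1798 and 1643 CPM in the untreated libraries. Kcnd3, an A-type channel, was 943 and 925 CPM with losartan and 849 and 465 CPM without it. Kcne4, an auxiliary subunit, was 12.5 and 25.1 CPM with losartan and 22.0 and 20.4 CPM without it. For Kcnt2 and Kcnd3 every fibroblast value lay above the next class, macrophage and dendritic nuclei, with means of 386 and 215 CPM. Kcnj8, the vascular pore of the ATP-sensitive channel, was 19.6 and 24.8 CPM in losartan and 16.0 and 8.59 CPM in untreated fibroblasts and overlapped mural nuclei, with a mean of 15.4 CPM. Urothelium led for Kcnk2, a mechanosensitive tandem-pore channel, at 548 and 471 CPM with losartan and 498 and 373 CPM without it, against 95.0 CPM in fibroblasts.

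Among leukocytes, macrophage and dendritic nuclei led for Kcnk13, a tandem-pore channel known from microglia, with 84.6 and 152 CPM in the losartan libraries and 157 and 208 CPM in the untreated libraries (log2 change -0.64, edgeR adjusted p = 0.599). Its 2 clusters drew unevenly on the libraries losartan 1, losartan 2, untreated 1 and untreated 2, with 55, 36, 64 and 18 nuclei in cluster 23 and 51, 81, 168 and 343 in cluster 30. Kcnk13 was 65.9 and 128 CPM with losartan and 94.8 and 46.1 CPM without it in cluster 23 (1 value from 18 nuclei), which overlap, and 107 and 168 CPM with losartan and 191 and 223 CPM without it in cluster 30. Lymphocyte nuclei led for Kcnq5, Kcnn4 and Kcnmb4. Kcnq5, an M-type channel, was 485 and 450.2 CPM with losartan and 436 and 1065 CPM without it. Its lymphocyte mean of 609 CPM was close to the 567 CPM of mural and mesangial nuclei, and the library values of these classes overlapped. Kcnn4, the calcium-activated channel of activated T cells, was 16.5 and 27.4 CPM with losartan and 45.9 and 113 CPM without it, and Kcnmb4, an auxiliary subunit, was 11.01 and 11.7 CPM with losartan and 32.1 and 41.2 CPM without it. Untreated 2 was highest for these 3 genes. Lymphocyte nuclei also held RNA of Slc12a3, a salt transporter gene of the distal convoluted tubule. It was 4642 and 5712 CPM with losartan and 3229.5 and 1681 CPM without it, against a mean of 137 CPM in podocytes. The part of such foreign RNA in the lymphocyte values was not tested. Lymphocytes numbered 43, 55, 115 and 281 nuclei in losartan 1, losartan 2, untreated 1 and untreated 2, too few for a test in the class. Kcna1, a voltage-gated channel of nerve and distal tubule, had 11, 5, 12 and 64 UMIs in kept nuclei of these libraries, 59.8% of them in 1 cluster of 19 Schwann-like nuclei.

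Whether losartan changed these genes was asked first in the whole kidney, with UMIs of all kept nuclei summed per library. A gene is called where the edgeR quasi-likelihood p, adjusted by Benjamini-Hochberg over all genes of the fit, is under 0.05. None of the 71 members was called, and none of the 18407 genes tested was called either (0.0%). At an unadjusted p under 0.05 there were 22 of 71 members, against 4027 genes (21.9%). DESeq2 called 9 members, with Kcnj15, Kcnrg, Kcnh4 and Kcnk5 higher and Kcnk13, Kcnab1, Kcnh8, Kcnq5 and Kcnn4 lower with losartan, and 1617 genes (8.78%). Both losartan values lay on the same side of both untreated values for 47 members (66.2%), 17 higher and 30 lower with losartan, against 56.9% of all genes, 27.8% higher and 29.1% lower. The median log2 change was -0.20 over the members and -0.01 over all genes tested, with 45 of 71 members and 51.5% of genes below 0.

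On the high side, the smallest p belonged to Kcnj15, at 833 and 850.5 CPM in the losartan libraries and 472 and 451 CPM in the untreated libraries (log2 change 1.02, SE 0.12, edgeR adjusted p = 0.112). Kcnrg was 30.04 and 28.9 CPM with losartan and 16.9 and 21.4 CPM without it (0.77, SE 0.13, adjusted p = 0.112). Kcnh4 was 35.5 and 15.7 CPM with losartan and 10.6 and 7.74 CPM without it (1.64, SE 0.45, adjusted p = 0.151), with losartan 1 standing apart. For these 3 genes both losartan values lay above both untreated values. Kcnk5 was 533 and 484 CPM with losartan and 397 and 287 CPM without it (0.72, SE 0.21, adjusted p = 0.162). Kcng1, a silent subunit, was 1.67 and 0.921 CPM with losartan and 0.685 and 0.237 CPM without it (1.67, SE 0.62, adjusted p = 0.218).

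On the low side, Kcnk13 was 1.96 and 3.12 CPM in the losartan libraries and 6.19 and 7.43 CPM in the untreated libraries (log2 change -1.27, SE 0.26, edgeR adjusted p = 0.1202). Kcng3, a silent subunit highest in intercalated cells, was 0.694 and 0.761 CPM with losartan and 1.70 and 1.87 CPM without it (-1.14, SE 0.25, adjusted p = 0.127). Kcnab1 was 19.0 and 26.9 CPM with losartan and 41.5 and 42.6 CPM without it (-0.73, SE 0.16, adjusted p = 0.128). Both losartan values lay below both untreated values for each of them. Kcnh8 was 1.05 and 5.55 CPM with losartan and 24.4 and 34.0 CPM without it (-3.01, SE 0.72, adjusted p = 0.132), and without losartan 2 its change was -4.60 and it was the 1 member called. Kcns3 was 5.08 and 5.75 CPM with losartan and 8.52 and 9.89 CPM without it (-0.62, SE 0.15, adjusted p = 0.137). Kcnip4, which shares its highest class with Kcnh8, was 13.6 and 35.6 CPM with losartan and 77.1 and 155 CPM without it (-2.09, SE 0.53, adjusted p = 0.140).

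**Figure D3:**
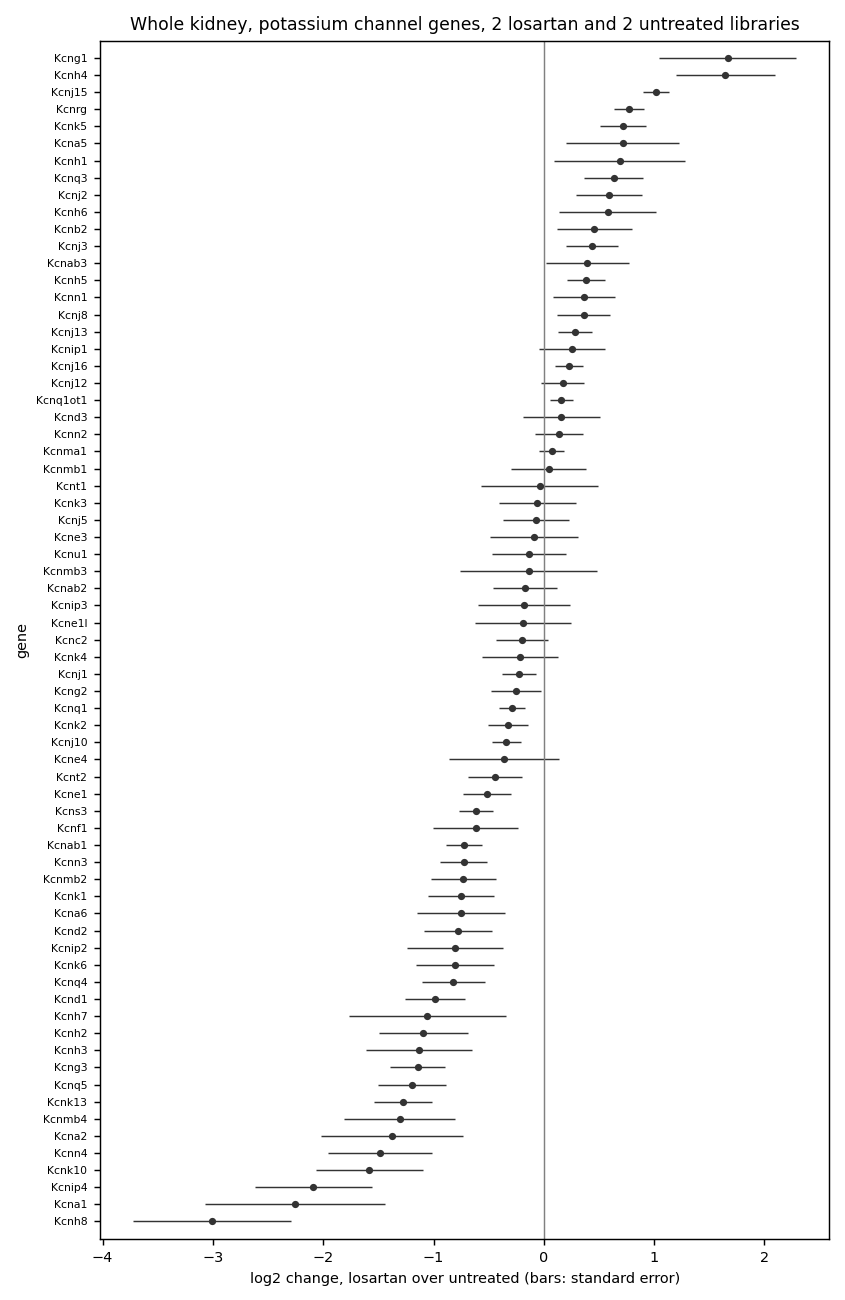
Each point is the log2 change of 1 member in the whole kidney, losartan over untreated (x axis), with its standard error as a bar, sorted from high to low (y axis). Kcng1 (1.67) and Kcnh4 (1.64) lie at the top and Kcnh8 (-3.01) at the bottom, and more points lie below 0 than above it.

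Numbers of nuclei per class moved with these whole-kidney values. The libraries losartan 1, losartan 2, untreated 1 and untreated 2 held 4210, 3438, 2720 and 1988 proximal tubule nuclei, the class where Kcnj15, Kcnk5 and Kcnh4 were highest. Unnamed clusters 0 and 7 also carried Kcnj15 (means of 996 and 1125 CPM) and Kcnk5 (699 and 695 CPM). Cluster 0 held 320, 221, 58 and 24 nuclei of these libraries, and cluster 7 held 484, 442, 200 and 114. All unnamed nuclei together held 11395842, 11161677, 3683486 and 3470565 UMIs in the same order. Macrophage and dendritic nuclei, highest for Kcnk13, numbered 106, 117, 232 and 361 in the same libraries, and injured proximal tubule nuclei, highest for Kcnh8 and Kcnip4, numbered 34, 139, 392 and 480. The part of these numbers in the changes was not tested, and in whole-kidney sums fewer cells of a type and less RNA per cell cannot be told apart.

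Within classes, 12 had at least 50 nuclei in every library and were fitted one by one. Of 299 member and class pairs tested, 4 were called, all higher with losartan, against 203 of 123423 gene and class pairs (0.164%), and 67 member pairs had an unadjusted p under 0.05, against 8.76% of gene pairs. DESeq2 called 10 member pairs and 0.698% of gene pairs. In the 12 classes 58 members were tested at least once, 5 in every class and 13 in none. The count of member pairs called moved when a single library was left out, and so did the count of all gene pairs called. All 4 calls belong to Kcnj15 and Kcnk5, the genes highest in the proximal tubule, and all lie in other classes.

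In intercalated cells, where 0.715% of 10065 genes were called (0.676% higher with losartan), Kcnk5 rose to 146 and 131 CPM in the losartan libraries, against 33.6 and 32.6 CPM in the untreated libraries (log2 change 2.10, SE 0.19, edgeR adjusted p = 0.0186). Kcnj15 rose there to 227 and 245 CPM with losartan, against 79.8 and 41.0 CPM without it (2.02, SE 0.26, adjusted p = 0.0253). Both calls were lost without losartan 1 (Kcnk5 2.03, adjusted p = 0.266; Kcnj15 2.07, adjusted p = 0.301). In mural and mesangial nuclei, where 0.729% of 7411 genes were called (0.607% higher with losartan), Kcnj15 rose to 531 and 561 CPM with losartan, against 168 and 158 CPM without it (1.74, SE 0.19, adjusted p = 0.0163). In parietal epithelium, where 0.287% of 5569 genes were called (0.269% higher with losartan), it rose to 194 and 242 CPM with losartan, against 78.4 and 58.6 CPM without it (1.70, SE 0.26, adjusted p = 0.0390). In each of these 4 comparisons the lower losartan value was above the higher untreated value. The same held for 1970 of 10065 genes in intercalated cells, 1650 of 7411 in mural nuclei and 1048 of 5569 in parietal epithelium. The 2 intercalated clusters hold different shares of the losartan and untreated nuclei, as given for Kcnq3. Within cluster 21 Kcnk5 was 264 and 233 CPM with losartan and 35.0 and 41.3 CPM without it, and Kcnj15 was 370.2 and 368 CPM with losartan and 103 and 48.6 CPM without it. Within cluster 28 Kcnk5 was 35.1 and 37.8 CPM with losartan and 31.8 and 13.4 CPM without it, and Kcnj15 was 93.0 and 132 CPM with losartan and 47.8 and 24.2 CPM without it. Both genes were thus higher in the losartan libraries within each cluster, by little for Kcnk5 in cluster 28.

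Over all 12 classes Kcnj15 had a log2 change above 0, with a range of 0.36 to 2.02, a median of 1.06 and an unadjusted p under 0.05 in 11 classes. Its smallest change was in the proximal tubule itself (0.36, SE 0.16, edgeR adjusted p = 0.439). Kcnk5 was also above 0 in all 12, with 0.16 in the proximal tubule (adjusted p = 0.636). These class values share the same 4 libraries. Kcnj16 had 6 classes above 0 and 6 below, and its largest change, 0.83 in mural nuclei (412 and 432 CPM with losartan, 262 and 215 CPM without it), was not called (adjusted p = 0.0877).

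Transcripts of proximal tubule genes were also higher in the losartan libraries of these classes. Their part in the Kcnj15 and Kcnk5 calls was not tested. A gauge of 10 proximal tubule genes (Kap, Lrp2, Cubn, Slc34a1, Slc5a12, Slc13a3, Slc22a6, Slc7a13, Miox and Acsm2) made up 0.490% and 0.417% of UMIs in losartan intercalated cells, and 0.164% and 0.108% in untreated ones. In mural nuclei it was 0.779% and 0.976% with losartan and 0.409% and 0.237% without it, and in parietal epithelium 0.485% and 0.433% with losartan and 0.199% and 0.128% without it. In proximal tubule nuclei it was 1.73% and 1.58% with losartan and 1.30% and 1.26% without it, so the gauge itself differed between groups there. The gauge leans on Kap, which alone was 2095 and 1917 CPM in losartan and 687 and 511 CPM in untreated parietal epithelium. There the log2 change of Kap was 1.75, between 0.59 for Lrp2 and 2.44 for Slc7a13. All 10 gauge genes had a change above 0 in intercalated, mural and parietal nuclei, with 4, 2 and 4 called, and over the whole kidney all 10 were above 0 with a median of 1.07 and none called (9 by DESeq2).

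Set against the gauge, Kcnj15 had 4.62 and 5.86 UMIs per 100 gauge UMIs in losartan intercalated cells and 4.87 and 3.79 in untreated ones. In mural nuclei it had 6.82 and 5.75 with losartan and 4.11 and 6.66 without it, and in parietal epithelium 3.99 and 5.58 with losartan and 3.94 and 4.59 without it. In all 3 classes these ratios overlapped between groups, and in proximal tubule nuclei they were 6.85 and 8.91 with losartan and 7.33 and 9.43 without it. Kcnk5 had 2.97 and 3.13 per 100 gauge UMIs in losartan intercalated cells and 2.06 and 3.02 in untreated ones, which also overlap. With the 10% of nuclei of each class and library richest in proximal tubule transcripts left out, the log2 change was 1.04 for Kcnk5 (adjusted p = 0.404) and 1.17 for Kcnj15 (adjusted p = 0.252) in intercalated cells, and 0.67 for Kcnj15 in parietal epithelium (adjusted p = 0.782), so that these 3 calls were lost. The Kcnj15 call in mural nuclei was kept there but was lost with doublets kept (0.93, adjusted p = 0.0801). The source of the Kcnj15 and Kcnk5 transcripts in these classes was not tested.

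**Figure D4:**
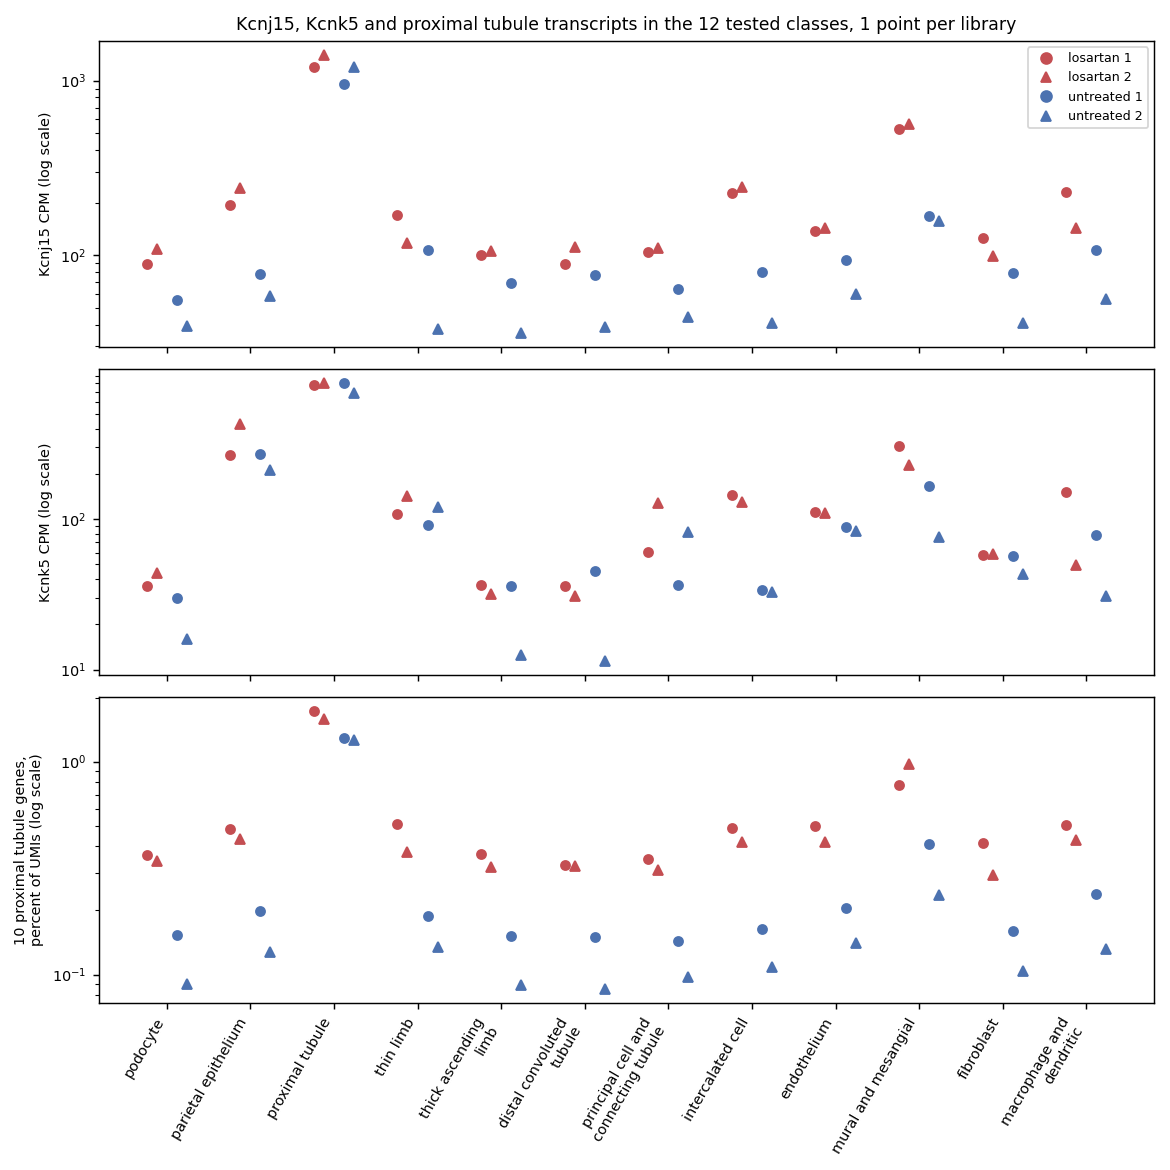
CPM of Kcnj15 (top) and Kcnk5 (middle), and the percent of UMIs from 10 proximal tubule genes (bottom), all on log scales, are shown in the 12 tested classes (x axis), losartan libraries in red left of untreated libraries in blue, 1 point per library. Outside the proximal tubule the bottom panel's losartan points lie above the untreated points in every class, for example 0.490% and 0.417% against 0.164% and 0.108% in intercalated cells, and the Kcnj15 points follow the same order.

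In the classes where they are highest, no transport channel was called. Distal convoluted tubule nuclei gave log2 changes of -0.04 for Kcnj1 (edgeR adjusted p = 0.936) and -0.04 for Kcnj10 (adjusted p = 0.947). Thick ascending limb nuclei gave 0.00 for Kcnj1 (adjusted p = 1), and Kcnj16 had -0.07 in the distal convoluted tubule (adjusted p = 0.904). Kcnip4 in the proximal tubule, outside its highest class, averaged 15.5 ± 5.72 CPM with losartan and 45.1 ± 6.93 CPM without it (SD, n = 2 each; log2 change -1.47, edgeR adjusted p = 0.214). With 2 libraries a group, an exact two-sided permutation test of a single gene cannot give a p below 0.333, so single-gene statements rest on the fits across genes.

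Differences between classes in the response to losartan were tested with the library as a block. When proximal tubule was set against thick ascending limb, none of 49 members was called (7 at an unadjusted p under 0.05), against 2 of 15199 genes (0.0132%, and 9.3% unadjusted). Some members were called when a single library was left out, without a count of all genes to set beside them. A pair of further tests was chosen after the values had been seen. The change of Kcnma1 in intercalated cells minus that in parietal epithelium was 2.58 (SE 0.36, edgeR adjusted p = 4.42e-05), and for Kcnk5 it was 1.61 (SE 0.31, adjusted p = 0.00563), against 0.431% of 10431 genes called. Kcnma1 was 38.2 and 31.7 CPM in losartan intercalated cells and 14.4 and 13.4 CPM in untreated ones (log2 change 1.37, SE 0.30, adjusted p = 0.101), and in parietal epithelium its change was -1.15 (SE 0.24, adjusted p = 0.122). By intercalated cluster, Kcnma1 was 66.1 and 47.8 CPM with losartan and 23.3 and 15.8 CPM without it in cluster 21, and 12.3 and 17.01 CPM with losartan and 2.27 and 8.05 CPM without it in cluster 28. The groups did not overlap in either cluster, but the share of all genes without overlap was not counted within clusters. In 1 proximal tubule cluster, with 1170 nuclei of losartan 1, Kcnma1 was 151 CPM in that library. The level was not confined to it: unnamed clusters 0 and 7 had means of 156.3 and 156.0 CPM over the 4 libraries. The proximal tubule gauge was higher in losartan intercalated cells, at 0.490% and 0.417% against 0.164% and 0.108%. Kcnma1 was not set against the gauge, and the part of such transcripts in its intercalated change was not tested. With any 1 library left out, the Kcnma1 change in parietal epithelium ran from -1.59 to -0.81. The Kcnk5 difference was lost without losartan 1 (1.20, adjusted p = 0.249).

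The change of Kcnb2, a delayed rectifier, in mural and mesangial nuclei minus that in fibroblasts was 2.24 (SE 0.29, edgeR adjusted p = 0.0157), against 0.121% of 11582 genes called. Kcnb2 was 246 and 150.5 CPM in losartan and 101 and 84.3 CPM in untreated mural nuclei (log2 change 1.09, SE 0.28, adjusted p = 0.107). In fibroblasts it was 66.4 and 36.5 CPM with losartan and 98.2 and 123 CPM without it (-1.15, SE 0.27, adjusted p = 0.262). Each class alone missed the threshold, while the groups did not overlap in either. Of 7411 genes tested in mural nuclei, 1650 also had both losartan values above both untreated values. In fibroblasts 2553 of 12994 genes had both losartan values below both untreated values.

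**Figure D5:**
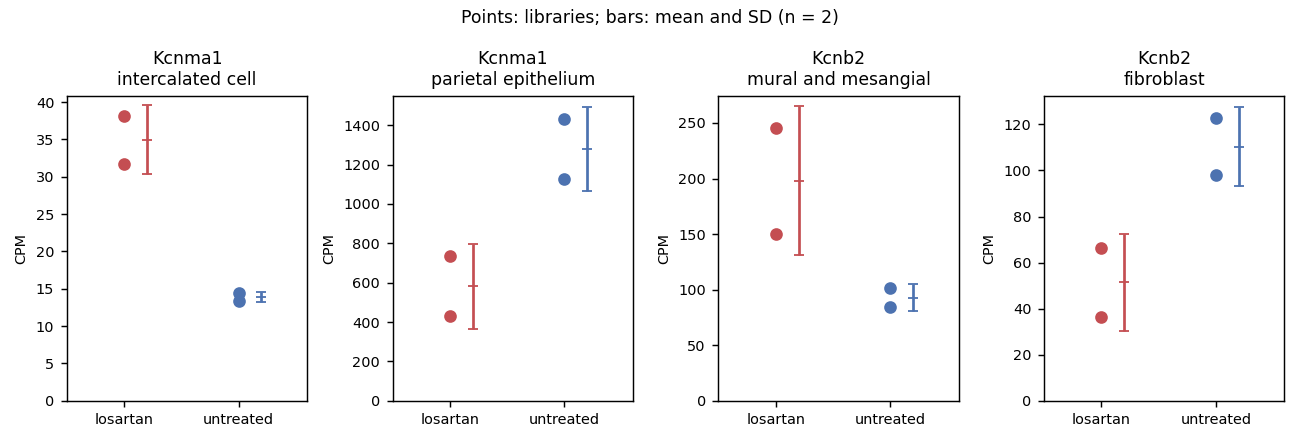
CPM (y axis, from 0) of Kcnma1 in intercalated cells and parietal epithelium and of Kcnb2 in mural and fibroblast nuclei, losartan in red left of untreated in blue; points are libraries and bars are mean and SD (n = 2). Losartan points lie above untreated points for Kcnma1 in intercalated cells and Kcnb2 in mural nuclei, and below them in the other 2 panels.

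Other genes of potassium handling gave the setting. Of 26 genes of potassium transport and its control, none was called in the whole kidney by edgeR (6 at an unadjusted p under 0.05; 1 by DESeq2), 12 had a change above 0, and the median log2 change was -0.02. Nedd4l, which marks the epithelial sodium channel for removal, had a change of 0.40 (edgeR adjusted p = 0.202). Slc12a4, a potassium-chloride cotransporter, was 8.35 and 11.8 CPM with losartan and 16.0 and 18.9 CPM without it (-0.64, SE 0.19, adjusted p = 0.161), and Hsd11b2, which shields the mineralocorticoid receptor from glucocorticoids, had -0.35 (adjusted p = 0.201). Of 9 partner subunits outside the Kcn names 8 were tested, none was called by edgeR (1 at an unadjusted p under 0.05; 1 by DESeq2), 1 was above 0 and the median was -0.15. Dpp10, a partner of Kcnd channels, was 0.992 and 1.76 CPM with losartan and 4.24 and 3.71 CPM without it (-1.39, SE 0.32, adjusted p = 0.131); Dpp6, of the same family, had -1.11 (adjusted p = 0.252) and Lrrc55, a partner of Kcnma1, had 0.16 (adjusted p = 0.819). No gene of either list was called in any tested class by edgeR or DESeq2.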

How the data were processed

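The deposited matrices hold raw UMI counts per gene and barcode, written by Cell Ranger 5.0.0 per the file headers; the submitters' processing notes name mm10 and Bowtie 0.12.2 without a role. Gene positions came from GENCODE M21 on GRCm38 by identifier. Nuclei were kept with at least 500 UMIs, 300 genes and at most 10% mitochondrial UMIs (scanpy 1.11.5). Scrublet marked 3242 doublets among 39654 barcodes, at 0.8% per 1000 nuclei except in untreated 1, where its automatic threshold marked 7.69%. Clusters came from 3000 variable genes without Kcn genes, 30 components, 15 neighbours and Leiden resolution 1 with seed 0. Each was named by the marker list with the highest score where it led by 0.25 with 3 markers in at least 10% of nuclei.

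UMIs were summed per library and class and tested with edgeR 4.0.16 (R 4.3.3; quasi-likelihood test, TMM, filterByExpr, Benjamini-Hochberg over all genes of a fit). DESeq2 1.42.0, RLE factors, no filter, a replicate block, single libraries left out, doublets kept, 1000 UMIs, resolution 0.5 and nuclei rich in proximal tubule transcripts left out were the alternatives. The fits were tested on simulated data. A level is plain CPM, while log2 changes use TMM scaling. Lists were 26 potassium transport genes, 9 partner subunits and 10 proximal tubule genes. Genes are named that were called, had the 5 smallest p on each side of 0 in the whole kidney, led a class (up to 3 a class with at least 20 UMIs in every library), lay next to the UMI limit or are long studied in kidney; of the lists, 2 genes on each side of 0. The members and lists were chosen with earlier results of these data known. A few genes that this rule would name are not reported here or drawn in the figures, though the counts include them.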

Additional observations from a re-analysis of the deposited data

Results flagged for a closer look

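The effect of losartan on Kcnma1 differed between 2 classes, being higher in intercalated cells than in parietal epithelium by 2.58 on the log2 scale (SE 0.36, edgeR adjusted p = 4.42e-05), a difference tested after the values were seen. It ran from 2.05 to 3.12 with single libraries left out. With nuclei rich in proximal tubule transcripts left out it was 2.64 (adjusted p = 0.00495). The Kcnma1 change in intercalated cells was not set against the gauge of proximal tubule transcripts. The 2 intercalated clusters differ in Kcnma1, with means of 38.3 CPM in cluster 21 and 9.91 CPM in cluster 28, and draw unevenly on the libraries; the part of this in the difference was not tested by a fit within clusters.

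The effect on Kcnk5 also differed between these classes, by 1.61 (SE 0.31, edgeR adjusted p = 0.00563), likewise tested after the values were seen. It was 0.94 (adjusted p = 0.706) with nuclei rich in proximal tubule transcripts left out and 1.20 (adjusted p = 0.249) without losartan 1. Kcnk5 had 5.51 and 9.88 UMIs per 100 gauge UMIs in losartan parietal epithelium and 13.7 and 16.6 in untreated parietal epithelium.

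The effect on Kcnb2 was higher in mural and mesangial nuclei than in fibroblasts by 2.24 (SE 0.29, edgeR adjusted p = 0.0157). These classes were also picked after the values were seen, and the adjusted p does not account for that choice. It was 1.604 (adjusted p = 0.0614) with doublets kept.

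A signal lay outside the named classes. Kcnh7, a voltage-gated channel of the Erg family, averaged 836 CPM in unnamed cluster 31 over the 3 libraries with at least 20 of its 409 nuclei, at 466 and 883 CPM in the losartan libraries and 1160 CPM in untreated 2. Its highest named class mean was 21.2 CPM, in principal and connecting tubule cells, and 59.3% of its UMIs came from unnamed clusters. Kcnh7 overlaps another gene on the opposite strand, so its values are uncertain.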

How the results depend on the processing

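Member calls in the whole kidney, otherwise 0, were 9 with DESeq2, 12 with a replicate block and 0 to 1 with single libraries left out (1 without losartan 2); gene calls were 1617, 2002 and 0 to 22 (22 without losartan 2, 1 without untreated 1). In the classes, 4 member calls became 10 with DESeq2, 34 without a filter, 21 with a replicate block, 17 with doublets kept and 3 to 54 with single libraries left out; 203 gene calls became 862, 3170, 1866, 1785 and 239 to 6011, and 365 with nuclei rich in proximal tubule transcripts left out. Between proximal tubule and thick ascending limb, member calls were 2 with doublets kept and 0 to 5 with single libraries left out. The cause of these shifts was not tested. Same-numbered libraries deviated together with r of 0.35 in the whole kidney and 0.0955 to 0.368 in the classes, over 2 pairs that share only a number. RLE factors and resolution 0.5 kept all counts within 1.5 times, and 1000 UMIs removed no nucleus, since the lowest kept one had 1839. The 34 members clear of their second class were 30 to 43, and of the 71 members 55 to 71 kept their highest class (55 at resolution 0.5, 58 with doublets kept, 60 without losartan 1). Of 26 single-gene results under their alternatives (271 in all), 218 kept their side of the threshold, 44 gained a call, 9 lost one and none reversed. With doublets kept no difference between intercalated cells and parietal epithelium could be fitted. Too few nuclei for a test were held by urothelium (30 to 146 a library), injured proximal tubule (34 to 480) and lymphocytes (43 to 281).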
